A study of Mus musculus with 6 samples.

Results

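The genes described here were the small nucleolar RNA (snoRNA) and small Cajal body-specific RNA (scaRNA) genes with 30 or more estimated counts in sum over 6 mouse dental pulp libraries. They were chosen by gene type and by that sum of counts alone, which is taken from the same values as the comparisons below and is given as a description. The table held 1558 genes of these types among 53342 genes. Of these, 168 reached the sum, 1008 were above 0 and under 30, and 382 were at 0 in all 6 libraries. By symbol the 168 genes were 19 *Snord* genes, 23 *Snora* genes, 7 *Scarna* genes and 119 with another symbol. The last class held 112 predicted genes with a *Gm* symbol, 6 *Rnu* genes and a snoRNA listed under the symbol *Snhg7*. Nearest above the sum of 30 were *Gm24682* at 30.2, *Gm22884* at 30.3 and *Gm24347* at 30.5 counts. Nearest below it were *Gm24044* and *Snord78* at 29.8 counts and *Gm24338* at 29.9 counts.

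The study compared pulp of WT mice with pulp of MMP13KO mice, which are homozygous for loss of matrix metalloproteinase 13, a collagenase of bone and tooth. Each genotype had 3 samples, from C57BL/6 mice aged 3 months. The loss affected the whole animal and not pulp alone, and the study's methods name male mice and independent biological samples. Molars are named in the labels' account of how tissue was taken for both genotypes, but in the titles of the WT samples alone, and the methods name incisors. Labels give total RNA as the molecule and then an mRNA isolation step on a spin column, and how well RNA as short as a snoRNA was kept in the libraries was not measured here.

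Box C/D snoRNAs guide 2'-O-methylation of ribosomal RNA, and box H/ACA snoRNAs guide its pseudouridylation. scaRNAs carry the same boxes and guide both changes on the small nuclear RNAs of the spliceosome, in Cajal bodies. Most of these RNAs are cut from the introns of host genes after splicing, whereas U3, U8, U13 and a few others have promoters of their own or act in the cleavage of the ribosomal RNA precursor rather than in its modification.

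The targeted gene *Mmp13* was at normalized counts of 1009, 1072 and 826 in WT (samples 2, 4 and 5) and of 8.85, 30.1 and 64.0 in MMP13KO (samples 1, 2 and 6). A normalized count is an estimated count brought to the scale of the mean library with trimmed mean of M-values (TMM) factors. The log2 fold change of *Mmp13* was -4.96 ± 0.46 (SE, n = 3 per genotype; edgeR quasi-likelihood test, Benjamini-Hochberg adjusted p = 7.67e-05). Library totals were 28442936 to 29980236 counts in WT and 21561420 to 26547121 in MMP13KO. Odorant and vomeronasal receptor genes, used as a measure of background, had 0.0947 to 0.116 counts per kilobase in WT and 1.50, 1.76 and 4.80 in MMP13KO samples 1, 2 and 6. MMP13KO sample 6 stood apart from the others, with a chi-square per degree of freedom of 411 and 317 against samples 1 and 2 and 41.1 between samples 1 and 2. Markers of some other cells also moved with genotype. Summed neutrophil and marrow markers were at 139 to 293 CPM (counts in proportion to the TMM-scaled library total) in WT and 705 to 1748 in MMP13KO, with 8 of 9 called higher and none at 0. Of 6 erythroid markers 4 were called higher (864 to 1383 CPM in WT, 2039 to 3812 in MMP13KO), and of 7 skeletal muscle markers 6 were called lower (49968 to 58734 CPM in WT, 8644 to 21174 in MMP13KO). Of 6 enamel epithelium markers 0 were called, with 1 higher at an edgeR adjusted p under 0.05 at any fold. Their sum was 1473 to 4527 CPM in WT and 3715 to 5111 in MMP13KO. All 6 odontoblast and pulp markers were detected in both genotypes, with *Dspp* and *Phex* called higher and *Col1a1* and *Nes* lower. The part of these cells and of the background in the results below was not tested, and in bulk tissue fewer cells of a type and less RNA per cell cannot be told apart.

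The 9 members below are shown by sequence because they carry the main contrasts. They are the U3 genes *Rnu3b1* (chr11:87443237-87443451, plus strand) and *Rnu3a* (chr10:40258467-40258679, plus), with U8 (*Snord118*, chr11:69073427-69073561, plus) and *Snord17* (chr2:144265979-144266216, minus). *Scarna6* (chr1:87784556-87784820, plus) is a scaRNA whose host gene was not called. *Snord104* (chr11:106500993-106501062, plus) is a short box C/D gene that was not called. U17 (*Snora73a*, chr4:132352775-132352979, minus), its near copy *Gm26448* (chr9:120129351-120129553, plus) and *Snora78* (chr17:24719676-24719803, minus) are of the H/ACA kind. Coordinates and sequences are from the GENCODE M21 annotation of GRCm38, in which all 168 genes were found by Ensembl identifier. Capitals mark TGATGA and the CTGA in the last 20 bases (the C and D boxes), or ACA before the last 3 bases.
Rnu3b1: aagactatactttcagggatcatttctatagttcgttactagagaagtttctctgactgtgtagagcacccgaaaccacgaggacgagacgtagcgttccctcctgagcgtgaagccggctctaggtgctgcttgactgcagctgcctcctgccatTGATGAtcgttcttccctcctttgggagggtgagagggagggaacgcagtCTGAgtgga
Rnu3a: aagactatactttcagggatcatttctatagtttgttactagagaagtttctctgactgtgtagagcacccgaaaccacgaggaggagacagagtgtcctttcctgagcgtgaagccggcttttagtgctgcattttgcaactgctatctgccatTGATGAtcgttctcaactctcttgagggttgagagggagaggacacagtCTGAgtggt
Snord118: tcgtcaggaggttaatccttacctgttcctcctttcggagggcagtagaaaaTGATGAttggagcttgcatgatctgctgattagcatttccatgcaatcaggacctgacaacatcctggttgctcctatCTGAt
Snord17: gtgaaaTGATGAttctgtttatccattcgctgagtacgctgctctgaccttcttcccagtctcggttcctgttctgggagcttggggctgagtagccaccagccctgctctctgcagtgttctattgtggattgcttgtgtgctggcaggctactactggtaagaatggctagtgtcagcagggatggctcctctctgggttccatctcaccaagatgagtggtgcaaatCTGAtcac
Snord104: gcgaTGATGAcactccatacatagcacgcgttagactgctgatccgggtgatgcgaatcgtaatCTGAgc
Scarna6: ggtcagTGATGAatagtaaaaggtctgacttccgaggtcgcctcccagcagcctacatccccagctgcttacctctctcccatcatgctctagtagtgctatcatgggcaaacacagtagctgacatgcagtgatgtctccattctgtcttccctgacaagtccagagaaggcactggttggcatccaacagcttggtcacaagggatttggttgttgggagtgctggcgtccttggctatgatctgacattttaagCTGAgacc
Snora73a: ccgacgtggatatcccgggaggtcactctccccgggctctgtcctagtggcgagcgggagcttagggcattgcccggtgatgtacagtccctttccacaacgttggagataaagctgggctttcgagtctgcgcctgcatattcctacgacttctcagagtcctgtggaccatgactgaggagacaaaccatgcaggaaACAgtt
Gm26448: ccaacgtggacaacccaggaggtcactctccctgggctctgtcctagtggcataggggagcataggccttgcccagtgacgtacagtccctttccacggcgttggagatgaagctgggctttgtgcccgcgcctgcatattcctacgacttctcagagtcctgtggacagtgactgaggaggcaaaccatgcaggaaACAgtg
Snora78: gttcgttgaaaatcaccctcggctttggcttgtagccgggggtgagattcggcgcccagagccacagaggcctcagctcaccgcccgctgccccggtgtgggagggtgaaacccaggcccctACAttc
Both TGATGA and a terminal CTGA were found on the transcribed strand in 40 of the 168 members (23.8%), in 23.0% of all 1558 snoRNA and scaRNA genes, in 0.272% of the 2202 miRNA genes and in 0.0723% of the 1383 snRNA genes. ACA at the 3' end was found in 72 members (42.9%), in 19.3% of all snoRNA and scaRNA genes, in 3.27% of miRNA genes and in 0.94% of snRNA genes. Only 1 member held both patterns. A match describes the letters and is not a mapped site.

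Summed counts of these genes were higher in MMP13KO in each symbol class, and the sums were not tested. Summed over its members, the *Snord* class stood at 9.75 ± 1.53 CPM in WT and 38.4 ± 1.90 CPM in MMP13KO (SD, n = 3), a ratio of 3.94. The *Snora* class went from 51.4 ± 7.62 to 108 ± 10.2 CPM, a ratio of 2.10. The *Scarna* class went from 119 ± 33.8 to 345 ± 27.3 CPM, a ratio of 2.88. No WT sample overlapped an MMP13KO sample in any of these sums. The members with other symbols went from 150 ± 19.4 to 744 ± 104 CPM, a ratio of 4.95. Within that class the 5 U3 genes alone went from 26.2 ± 4.32 to 446 ± 116 CPM, a ratio of 17.05. The 10 members with the largest sums held 75.0% of all member counts, so the sums follow a few genes.

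**Figure D1:**
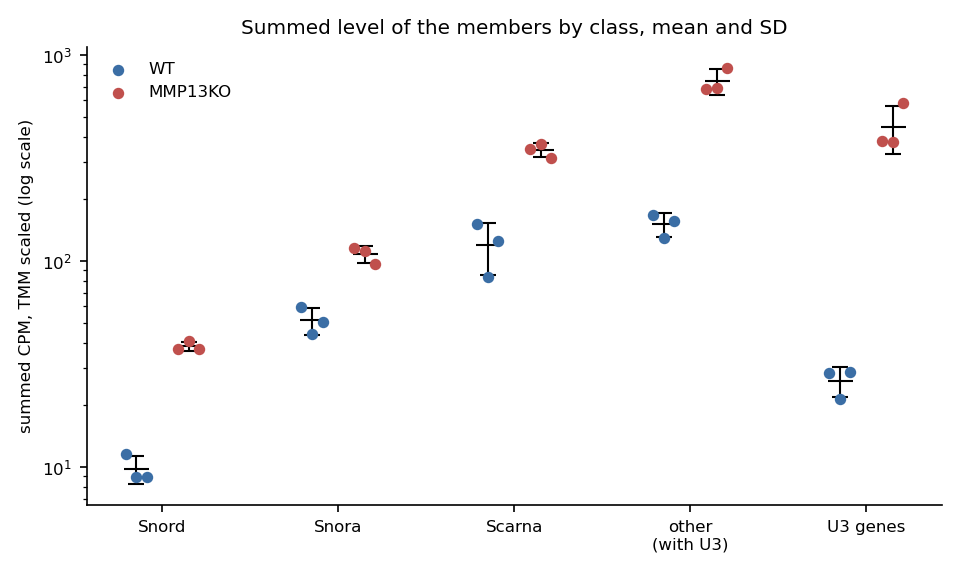
Summed level of the members of each symbol class in each sample, as TMM-scaled CPM on a log axis, for 3 WT and 3 MMP13KO samples, with the mean and SD in black. The MMP13KO points lie above the WT points in every class, with ratios of the means of 3.94 for Snord, 2.10 for Snora, 2.88 for Scarna, 4.95 for the other symbols and 17.05 for the 5 U3 genes, which are also part of the other symbols.

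Gene by gene, 81 of the 168 members passed the edgeR filter on low counts and were tested among 24534 genes. Calls needed an adjusted p under 0.05 together with a change of more than 2-fold. Of the 81, 43 were called higher in MMP13KO, 0 lower and 38 neither, against 20.4% of all genes tested called higher and 9.68% lower. The count of 0 lower stood beside 2 members lower at an unadjusted p under 0.05 in edgeR, 0 called lower by DESeq2 and 1 by limma, which was *Scarna17*. The median log2 fold change of the tested members was 1.49, and that of all genes tested was 0.10. In 53 of the 81 every MMP13KO sample was above every WT sample, and in 3 every one was below, against 31.8% and 29.1% of all genes tested. A gene with few WT counts could reach the sum of 30 or the filter through MMP13KO alone and then had to differ. Of 68 members with 30 or more counts in WT alone, 57 were tested and 11 were not, and 29 of the 57 were called higher. The filter on low counts could still be passed through MMP13KO in this set, so it is not free of that selection. In all, 87 of the 168 members were not tested, and 117 of the 168 had under 100 counts in sum. Near-identical copies, such as *Rnu3b1* to *Rnu3b4*, are counted singly in these numbers and in those by class, position and length. Members with few WT counts are included in those by class, position and length.

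By class, 5 of 7 tested *Snord* genes, 5 of 11 *Snora* genes, 4 of 7 *Scarna* genes and 29 of 56 genes with another symbol were called higher, at median log2 fold changes of 2.50, 0.98, 2.37 and 1.43. Of all genes tested 20.4% were called higher. The class counts and medians include members such as *Snord118*, *Snord13*, *Snora81* and *Scarna3a*. With few WT counts, these reached the sum required of members only through MMP13KO and had to be higher. The classes were not counted again without such members, nor tested against each other. Of the comparison gene types under the same sum, 35 of 55 tested snRNA genes were called higher and 1 lower at a median of 3.38, and 14 of 67 miscellaneous RNA genes higher and 2 lower at 0.21. Of 46 tested miRNA genes 3 were called higher and 14 lower, at a median of -0.81. Of 1156 long intergenic RNA genes 385 were called higher and 63 lower, at a median of 0.71. Of 16997 protein-coding genes 3263 were called higher and 2025 lower, at a median of -0.01. Genes of these comparison types could also meet the sum or the filter through MMP13KO alone. The types were not counted again without such genes.

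**Figure D2:**
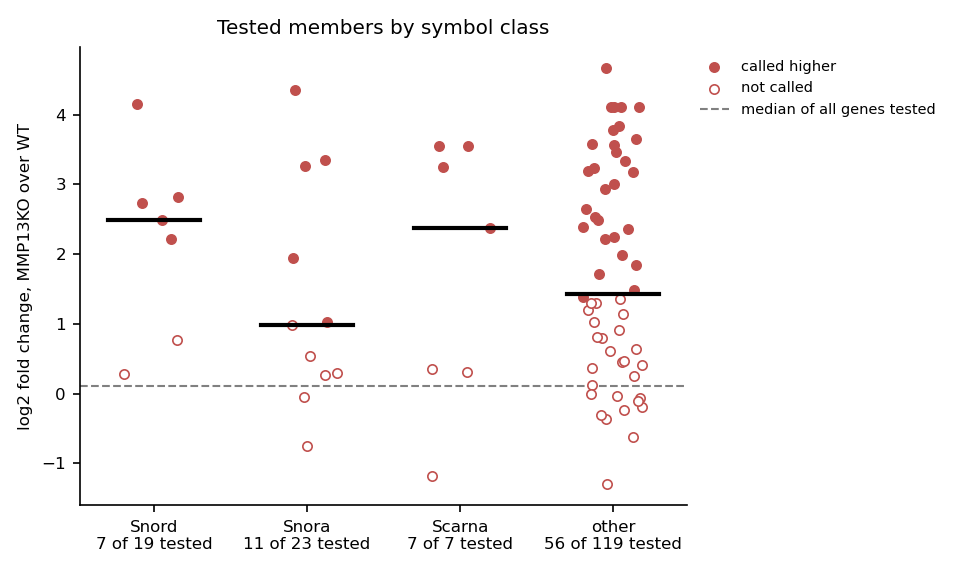
Log2 fold change of the 81 tested members by symbol class, filled where called higher and open where not called, with the class median as a black bar and the median of all genes tested (0.10) as a dashed line. The medians are 2.50 for Snord, 0.98 for Snora, 2.37 for Scarna and 1.43 for the other symbols. Points below 0 occur in the Snora, Scarna and other classes without a call. Members with few WT counts, such as Snord118, had to be higher to reach the required sum and are included.

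U3, the box C/D RNA that directs the first cleavages of the ribosomal RNA precursor, had the highest fold changes among members with over 100 WT counts per sample. *Rnu3b4* had 199, 154 and 218 normalized counts in WT and 2806, 2783 and 4243 in MMP13KO, in the sample order given for *Mmp13*, which is kept from here on. The lowest MMP13KO sample was many times above the highest WT sample. Its log2 fold change was 4.11 ± 0.23 (SE; edgeR adjusted p = 5.23e-06). *Rnu3b1*, *Rnu3b2* and *Rnu3b3* had values of 4.11 each, but the 4 genes are 99.5% to 100% identical in sequence, so their counts were shared among copies and do not stand for 4 measurements. *Rnu3a* is 85.2% to 85.6% identical to them. It had 76.6, 43.8 and 28.9 normalized counts in WT and 620, 507 and 944 in MMP13KO, without overlap, at a log2 fold change of 3.78 ± 0.35 (edgeR adjusted p = 7.67e-05). Second identifiers of all 5 U3 genes were listed at 0 in all samples.

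Of other snoRNAs with a particular known role, U8 and U13 were counted at low depth and U14 not at all. U8 (*Snord118*), which acts in maturation of the large subunit RNAs, had 1.25, 1.82 and 0 normalized counts in WT and 23.0, 14.9 and 19.0 in MMP13KO, so the genotypes did not overlap. Summed over libraries that was 3 counts in WT and 55 in MMP13KO, a ratio of 19.9 with an exact 95% interval of 6.46 to 99.5 that covers counting error only (edgeR adjusted p = 0.00212). U13 (*Snord13*), which is tied to acetylation of the small subunit RNA, had 3.78, 0 and 3.13 normalized counts in WT and 9.98, 14.9 and 23.2 in MMP13KO. All MMP13KO values were above WT, at a log2 fold change of 2.73 ± 0.85 (edgeR adjusted p = 0.022), and the call was lost without WT sample 4 (2.13), WT sample 5 (2.90) or MMP13KO sample 2 (2.72). With so few WT counts, U8 and U13 reached the sum required of members only through MMP13KO and had to be higher there. Their p-values and the interval of U8 are therefore given as a description. U14 genes (*Snord14a*, *Snord14c*, *Snord14d* and *Snord14e*) were listed at 0 throughout. The RNase MRP RNA *Rmrp*, which also cleaves the precursor but is no snoRNA gene here, rose from 4518 ± 728 to 9540 ± 380 normalized counts (log2 fold change 1.08, edgeR adjusted p = 0.000875).

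Among other *Snord* genes, *Snord17* had 147, 97.6 and 68.1 normalized counts in WT and 566, 687 and 510 in MMP13KO, with a wide gap between genotypes. Its log2 fold change was 2.50 ± 0.26 (edgeR adjusted p = 0.000117). *Snord22*, which overlaps exons of the snoRNA host *Snhg1*, went from 34.4 ± 5.73 to 245 ± 42.8 (log2 fold change 2.83 ± 0.23, edgeR adjusted p = 4.88e-05). *Snord15a*, in an intron of the ribosomal protein gene *Rps3*, went from 12.98 ± 4.79 to 60.4 ± 7.88 (2.21 ± 0.39, edgeR adjusted p = 0.00127). *Snord104* had 22.5, 13.2 and 20.9 normalized counts in WT and 27.6, 30.2 and 39.2 in MMP13KO. These values did not overlap but were not called, at 0.77 ± 0.42 (edgeR adjusted p = 0.15). *Snord83b* was the other tested *Snord* gene without a call, at 0.28. The remaining 12 *Snord* members were not tested. Of the imprinted brain families, 17 *Snord116* genes were listed with 15 at 0 and a largest sum of 1.62 counts, *Snord64* was listed at 0, and *Snord113*, *Snord114* and *Snord115* had no rows under those symbols.

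Of the 11 tested *Snora* genes 5 were called higher and 6 were not. U17, the H/ACA RNA that acts in cleavage of the precursor, is encoded by *Snora73a* and *Snora73b*. Both lie within introns of *Rcc1*, taken as their host by a rule that puts protein-coding genes first. Another choice of host was not tested. *Snora73a* had 915, 642 and 773 normalized counts in WT and 1805, 1724 and 1230 in MMP13KO, without overlap and at a log2 fold change of 1.03 ± 0.19 (edgeR adjusted p = 0.00156). That is close to the 2-fold line, and the gene was not called in 6 of the alternatives, with values down to 0.87 without MMP13KO sample 1 or WT sample 4. *Snora73b*, 96.6% identical to it, had 464, 324 and 378 in WT and 785, 736 and 778 in MMP13KO, at 0.98 ± 0.16 (edgeR adjusted p = 0.000848) and thus under the line. *Gm26448*, named here after its values were seen, is 87.8% identical to both and lies in an intron of *Rpsa*. It had 106, 82.1 and 96.5 in WT and 566, 551 and 486 in MMP13KO, at 2.50 ± 0.17 (edgeR adjusted p = 2.08e-05).

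A group of 3 *Snora* genes passed the test at over 3 on the log2 scale. *Snora81*, in *Eif4a2*, had 3.88, 1.88 and 2.01 normalized counts in WT and 51.4, 54.5 and 58.0 in MMP13KO (log2 fold change 4.36 ± 0.48, edgeR adjusted p = 0.00014). *Snora74a* went from 17.7 ± 3.45 to 180 ± 24.2 (3.35 ± 0.26, edgeR adjusted p = 4.1e-05) and *Snora23*, in *Ipo7*, from 9.78 ± 5.50 to 97.8 ± 23.4 (3.27 ± 0.43, edgeR adjusted p = 0.000276). The genotypes did not overlap in any of the 3. *Snora81* had so few WT counts that it reached the sum required of members only through MMP13KO. It had to be higher there, and its p-value is given as a description. *Snora23* had 4.65, 9.10 and 15.6 normalized counts in WT and could pass the filter on low counts through MMP13KO alone. Its p-value is also given as a description. *Snora21*, in the ribosomal protein gene *Rpl23*, passed at 1.94, and the class had 3 called genes, without *Snora21* and *Snora73a*, when any one of WT samples 4 and 5 and MMP13KO samples 1 and 2 was left out. *Snora78* had 89.9, 78.2 and 78.4 normalized counts in WT and 83.4, 78.1 and 77.6 in MMP13KO, which overlapped almost fully, at -0.05 ± 0.22 (edgeR adjusted p = 0.875), and was called only with GC content offsets, at 1.13. *Snora30* had 22.6 ± 2.76 in WT and 13.6 ± 1.70 in MMP13KO without a call (-0.75, edgeR adjusted p = 0.189). *Snora62* was a member but was not tested, at 4.94 ± 3.71 and 6.85 ± 2.02 normalized counts.

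All 7 *Scarna* genes were tested, and 4 were called higher and 3 were not called. *Scarna10* had 484, 316 and 413 normalized counts in WT and 4813, 4965 and 4450 in MMP13KO, which were far apart (log2 fold change 3.55 ± 0.19, edgeR adjusted p = 4.43e-06). *Scarna6*, in an intron of *Atg16l1*, had 73.5, 32.4 and 42.1 in WT and 445, 489 and 475 in MMP13KO (3.25 ± 0.27, edgeR adjusted p = 5.21e-05). *Scarna13*, in *Snhg10*, had 250, 128 and 191 in WT and 1091, 1031 and 822 in MMP13KO (2.37 ± 0.24, edgeR adjusted p = 9.9e-05). *Scarna3a* was counted 3 times in WT and 36 times in MMP13KO, a ratio of 13.03 (exact 95% interval 4.12 to 66.1). The interval covers counting error only. *Scarna3a* reached the sum required of members only through MMP13KO and had to be higher there, so the ratio is given as a description. *Scarna2*, a gene of its own between genes, had 3255, 1768 and 2688 in WT and 3106, 3580 and 2840 in MMP13KO. These overlapped, at 0.31 ± 0.22 (edgeR adjusted p = 0.265), and the gene was called only with GC content offsets, at 1.47. *Scarna9* was at 0.35 without a call. *Scarna17* had 36.4, 24.4 and 27.3 in WT and 12.9, 9.35 and 16.7 in MMP13KO, lower in each MMP13KO sample but not called, at -1.17 ± 0.46 (edgeR adjusted p = 0.0565).

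**Figure D3:**
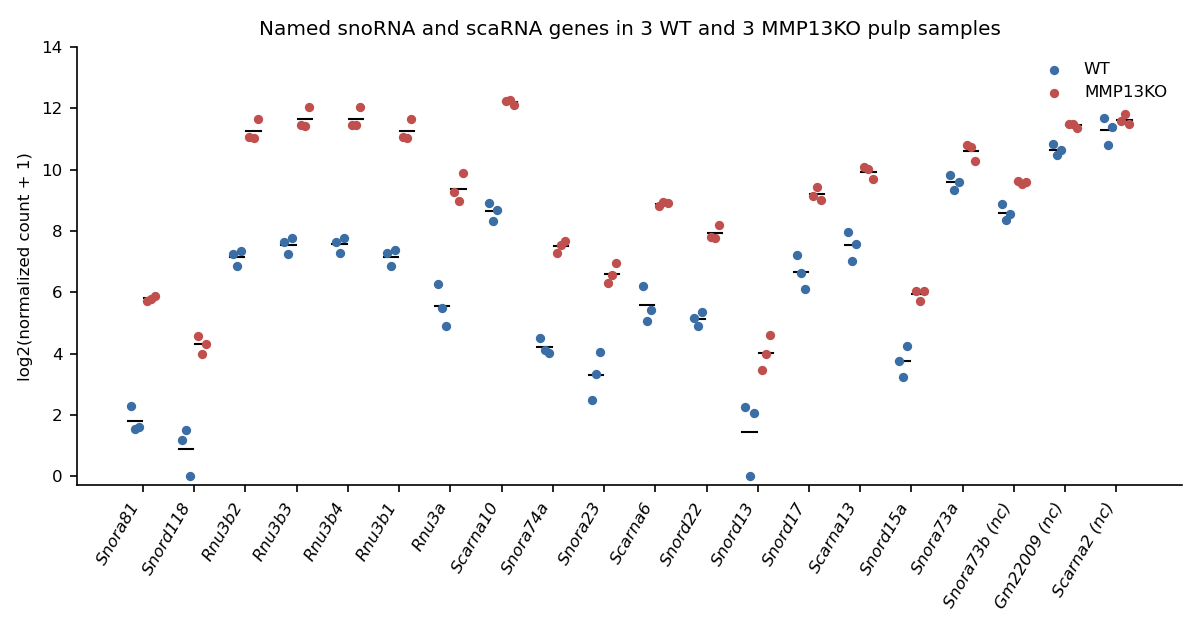
Normalized counts of the 20 tested named members in each of the 3 WT and 3 MMP13KO samples, as log2(normalized count + 1), ordered by fold change, with group means as black bars and "nc" for not called. The genotypes are separate for every gene but Scarna2 at the right, and Snora73b and Gm22009 are separate with a change under 2-fold.

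Of the members named by a *Gm* symbol, 24 of 50 tested were called higher, at a median of 1.33, against 20.4% of all genes tested. The 24 include members with few WT counts that had to be higher, such as *Gm25107*, and were not counted again without them. *Gm22009*, in an intron of *Kpna4*, had 1822, 1417 and 1604 normalized counts in WT and 2876, 2882 and 2637 in MMP13KO. The genotypes did not overlap, but the change was under 2-fold, at 0.79 ± 0.15 (edgeR adjusted p = 0.00168), and turned to -0.04 with GC content offsets. The largest fitted change of all members was that of *Gm25107*, with 1 count in WT and 32 in MMP13KO. Its ratio was 34.7 (exact 95% interval 5.80 to 1415, for counting error only). *Gm25107* reached the sum required of members only through MMP13KO and had to be higher there, so the ratio is given as a description. Several *Gm* genes are near copies of each other, such as *Gm24727* and *Gm23123* (98.6% identical) and *Gm22154* and *Gm25788* (96.9% identical), and the values of such copies taken singly are uncertain.

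By position, 104 members lay in an intron of a gene on the same strand, 25 overlapped one of its exons, 28 lay antisense to a gene and 11 between genes. Of those tested, 32 of 55 intronic members, 8 of 10 with exon overlap and 3 of 9 between genes were called higher, against 20.4% of all genes tested. Of the 7 tested antisense members, 0 were called by edgeR, DESeq2 or limma, with 0 at an unadjusted p under 0.05 in edgeR, at a median log2 fold change of -0.03. With so few tested, 0 is near the share of all genes and is not read as a result about antisense members. Counting by strand is not stated, so reads of a member and of a transcript over it cannot be told apart.

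The host genes were compared with the RNAs that lie within them. For 63 tested members with a tested host on the same strand, the median log2 fold change was 2.21 for the member and 0.24 for the host, and 57 members were above their host. The 63 pairs include members with few WT counts, such as *Snora81*. These reached the sum required of members only through MMP13KO and had to be higher. The pairs were not counted again without them. Of the 24 members not called that had a tested host, 18 were above it, at medians of 0.43 for the member and -0.04 for the host. The 39 called members were selected for a change over 2-fold, and all 39 were above their host, with hosts at a median of 0.38. Among these 39 the host was called higher for 10, lower for 1 and neither for 28, and its fold change was below 0 for 13. The 10 include *Rnu3b1* to *Rnu3b4* in *Tex14*, near-identical copies that are not separate measurements but are counted singly here and in the 63 pairs. Across the 63 pairs Spearman's rho was 0.43, given as a description since members share hosts and libraries. Hosts with a value below 0 and a called member included *Slc25a3*, a mitochondrial phosphate carrier, at -1.19 with *Gm24119* at 3.57, and *Atg16l1*, an autophagy gene, at -0.29 with *Gm25395* at 3.56 and *Scarna6* at 3.25. These pairs and the following were chosen after their values were seen.

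Members that share a host are set side by side. In *Ipo7* (0.80) *Snora23* was at 3.27 and *Gm25636* at 0.42 (edgeR adjusted p = 0.552). In *Snx5* (0.73) *Snord17* was at 2.50 and *Gm26165* at 1.14 (edgeR adjusted p = 0.12). In *Cep295*, itself called higher at 1.12, *Scarna9* was at 0.35 and *Gm24339* at 0.92, neither called. The difference between members of one host was not tested. *Snora23*, and *Snora81* below, had few WT counts, with the limits given above for each. In *Eif4a2* (1.25) both *Snora81* and *Gm24616* were called, at 4.36 and 2.65, and the *Rnu3b* genes lie in introns of *Tex14*, which was called at 2.35.

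**Figure D4:**
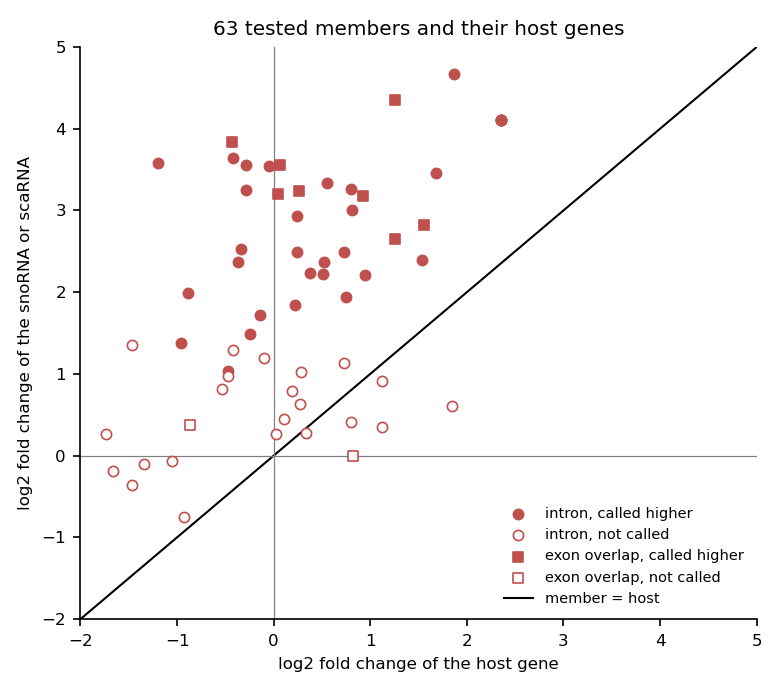
Log2 fold change of 63 tested members (y axis) against that of their tested host gene on the same strand (x axis), circles for intronic members, squares for exon overlap, filled where the member was called higher. All 39 filled points, selected for a change over 2-fold, and 18 of the 24 open points lie above the line of equal change. Members with few WT counts, such as Snora81, had to be higher to reach the required sum and are included.

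Calls are given by annotated length, with no test between the length groups. Of 18 members of 200 bases or more, 17 were tested and 13 called higher, at a median log2 fold change of 3.25, and these 18 held 84.9% of all member counts. The 13 include the near-identical copies *Rnu3b1* to *Rnu3b4*, and of all genes tested 20.4% were called higher. Of 119 members of 100 to under 200 bases, 58 were tested and 30 called, at a median of 1.43. Of 31 members under 100 bases, 6 were tested and 0 were called higher by edgeR, DESeq2 or limma, with 1 higher at an unadjusted p under 0.05 in edgeR, at a median of 0.31. With so few tested, 0 is near the share of all genes and is not read as a result about short members. Across the 81 tested members Spearman's rho of fold change was 0.41 with length and -0.27 with GC content, as a description over genes of the same libraries. The part of length in the classes was not tested, and the median length was 85.0 bases for *Snord*, 136 for *Snora* and 265 for *Scarna* members.

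**Figure D5:**
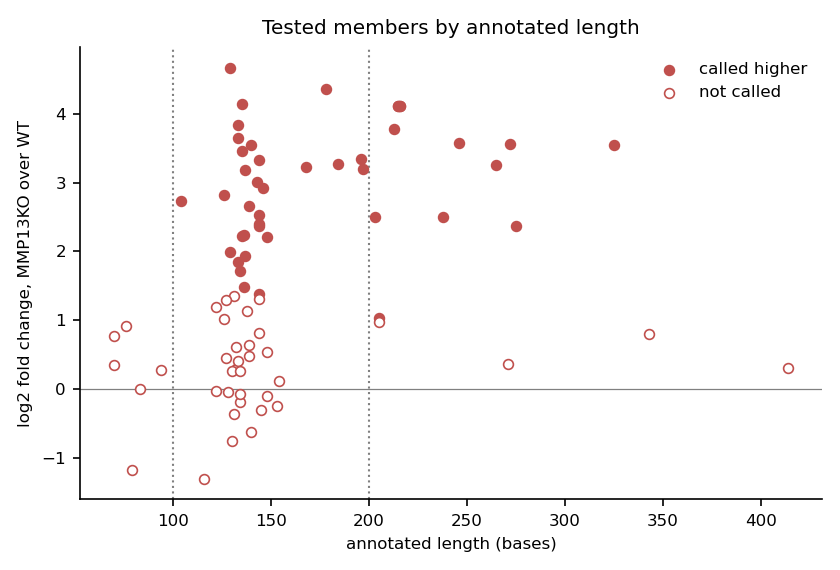
Log2 fold change of the 81 tested members against annotated length in bases, filled where called higher, with dotted lines at 100 and 200 bases. No filled point lies under 100 bases, where only 6 members were tested, and 13 of the 17 points at 200 bases or more are filled. Of all genes tested 20.4% were called higher.

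As a description of the called members, which were selected for high MMP13KO counts, each of the 43 had at least 3.89 times the counts that the receptor genes would give for its length in every MMP13KO sample, and 34 had 10 times or more. The lowest multiple was that of *Gm25107* in MMP13KO sample 6. With background counts subtracted, an alternative chosen after seeing the data, 44 members were called higher.

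Genes for the proteins that build or process these RNAs were read against the 20.4% of all genes called higher and 9.68% called lower, and against the 27.3% higher and 24.3% lower at an adjusted p under 0.05 at any fold. Of the 4 box C/D proteins (median 0.55) 0 were called over 2-fold by edgeR, DESeq2 or limma, but 2 were higher and 1 lower at an edgeR adjusted p under 0.05, the same number as at an unadjusted p under 0.05. These were *Nop58* at 0.96, *Snu13* at 0.89 and *Fbl*, the methyltransferase, at -0.39 on the log2 scale, and *Nop56* was at 0.20. Of the 4 H/ACA proteins (median 0.60) *Nop10* was called higher at 1.22, whereas *Nhp2* at 0.76 passed the adjusted p under the 2-fold line, and the pseudouridine synthase *Dkc1* was at 0.44 and *Gar1* at -0.42. Among 10 tested assembly factors 2 were called higher, *Taf9* (1.43) and *Shq1* (1.11), 2 were higher and 4 lower at an adjusted p under 0.05 at any fold, and the median of the list was 0 to within rounding. Among 9 Cajal body and nucleolar transit factors (median -0.15) *Tgs1*, which hypermethylates the cap of U3 and U8, was called higher at 1.41 and *Tcof1* lower at -1.01, with 3 higher and 2 lower at any fold. Among 12 tested end processing and decay factors (median 0.66) *Ssb*, the La protein, at 1.80 and *Skiv2l2*, the helicase of the nuclear exosome, at 1.01 were called higher, with 8 higher and 2 lower at any fold.

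For ribosomal RNA synthesis and maturation, 4 of 22 genes were called higher and 0 lower by edgeR, at a median of 0.15, against the 20.4% and 9.68% of all genes. At an adjusted p under 0.05 at any fold 7 were higher and 6 lower (8 and 6 at an unadjusted p under 0.05), and 0 were called lower by DESeq2 or limma. The 4 genes were *Mphosph10* (1.90), a protein of the U3 particle, *Npm1* (1.30), *Nip7* (1.29) and *Taf1b* (1.04), and *Ubtf* was lower at -0.88, under the 2-fold line (edgeR adjusted p = 0.00137). Of 40 tested genes listed as snoRNA hosts, 9 were called higher and 0 lower by edgeR, at a median of 0.40, close to the 20.4% of all genes called higher. Whether each gene of that list hosts several snoRNAs was not checked here. At an adjusted p under 0.05 at any fold 17 were higher and 6 lower (19 and 6 at an unadjusted p under 0.05), and 0 were called lower by DESeq2 and 1 by limma. The called ones included *Snhg14* (2.05), *Snhg1* (1.56), *Eif4a1* (1.54) and *Snhg4* (1.37). The telomerase RNA *Terc*, which carries an H/ACA domain, went from 28.4 ± 10.7 to 59.5 ± 18.4 normalized counts (log2 fold change 1.08, edgeR adjusted p = 0.0376).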

How the data were processed

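Pulp RNA of 3 WT and 3 MMP13KO mice was sequenced, and samples were grouped by their labelled genotype. The authors made estimated counts per gene in Strand NGS, which carry fractions where reads were shared among genes. The authors also deposited normalized log2 values, centred on each gene's median. The labels name the build mm10 and the tool DESeq. Strand, aligner settings and annotation release are not given in the sources used here.

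Estimated counts were rounded and tested for all genes with edgeR 4.0.16 in R 4.3.3 (quasi-likelihood test, TMM factors, filter on low counts by genotype, Benjamini-Hochberg adjustment, no covariates). Alternatives used DESeq2 1.42.0, limma 3.58.1 on the deposited log2 values, other factors, filters and GC content offsets, and left out each sample in turn. The fits were tested on simulated data. Positions, hosts and sequences came from GENCODE M21 (GRCm38, the same assembly as mm10), with hosts as annotated genes that contain a member on the same strand. Where several genes contained a member, a protein-coding gene was taken first and then the shortest, and another choice of host was not tested. The background rate was read over 1451 receptor genes, with 300 bases added to each exon length. An SE is that of the fitted log2 fold change, and SD is over 3 samples. Differences between samples of a genotype exceeded counting error (lowest chi-square per degree of freedom 24.1 over genes with at least 20 counts), so no sample was counted as a copy of another. With 3 samples against 3, an exact permutation test of a single value cannot go below 0.1, and none was run.

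The members and all gene lists were chosen with earlier results of these data known. Named members were, in each symbol class, the 3 with the highest mean normalized count and the 3 called ones with the smallest adjusted p in each direction, RNAs with a known particular role, and the 3 nearest to the sum of 30 on either side. Of each list up to 4 genes with the smallest adjusted p were named. Other members, and list genes beyond these, were named after their values were seen, to account for a class, a host or a contrast.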

Additional observations from a re-analysis of the deposited data

How the results depend on the processing

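Calls of members as higher ranged from 41 to 48 of the tested members under other factors, no filter, DESeq2, limma, GC content offsets and background subtraction (chosen after seeing the data), and 42 of the 43 calls were shared with limma. Upper-quartile factors, unscaled totals and GC content offsets moved the median of all genes from 0.10 to 0.32, 0.21 and 0.22. The largest shift was without a filter on low counts, where that median was 1.30, so its count of calls is less comparable. With at least 10 counts in every sample, fewer members could be fitted, and 27 were called (26 higher and *Scarna17* lower), with 2 *Snord*, 3 *Snora* and 18 other symbols. A sum of 100 or more kept 3 called *Snord* genes. Called *Snora* genes numbered 3 without a filter and 8 with GC content offsets. Leaving out each sample in turn gave 36 to 51 called members (2 of them lower without MMP13KO sample 6 and 1 without MMP13KO sample 2), with 4 to 5 *Snord*, 3 to 6 *Snora*, 4 to 5 *Scarna* and 25 to 35 other symbols. *Gm22009* went from 0.79 to -0.042 with GC content offsets, and the cause was not tested. Of the other values of single genes under an alternative, 297 kept their direction and side of the threshold, 9 fell under it and 8 rose past it. No paired analysis was possible because the genotypes share only the replicate number 2. At this depth 87 members were not tested, and a count of 0 allows up to 0.1 to 0.139 CPM in a library.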
